A study of Mus musculus with 4 samples.

Results

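The testis-specific serine kinases and their substrate Tsks were followed by RNA-seq in mouse pachytene spermatocytes of a Ddx4 knock-in line. The 6 members, Tssk1, Tssk2, Tssk3, Tssk4, Tssk6 and Tsks, were taken by gene symbol from a table of 55364 genes. The groups were 2 libraries labelled DDX4 homozygous knock-in (KK) and 2 labelled WT. Ddx4 encodes the germline RNA helicase of germ granules, and the series title names RNA homeostasis and germ granules that depend on phase separation. Both groups were germ cells from testis, released by digestion with collagenase and then trypsin and separated in an elutriator to enrich pachytene spermatocytes; DAPI staining was used to check the fractions. The labels give no strain, age or description of the inserted sequence, and do not state whether replicate libraries come from different mice. The p-values thus measure only the spread between libraries, which may be technical.

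TSSK proteins are serine/threonine kinases of the calcium/calmodulin-dependent kinase (CAMK) group, and in mice they act mainly in spermatids, the haploid cells that follow meiosis. TSSK1 and TSSK2 phosphorylate TSKS, and all 3 proteins are found at the structures into which the chromatoid body, the DDX4-containing germ granule of spermatids, is remodelled. TSSK6 is needed for chromatin condensation in spermatids, TSSK4 for sperm flagellum structure, and male mice without TSSK3 or TSSK6 are sterile. Transcripts of many spermatid proteins are already made in pachytene spermatocytes and are stored for later translation.

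Tssk1 and Tssk2 lie next to each other and share a long identical coding stretch, which bears on how reads are assigned. Tssk1 (chromosome 16, 17894223 to 17897922, plus strand, GRCm38) and Tssk2 (17898637 to 17900024, plus strand) are 714 bases apart, and both have 1 exon. The longest run of identical bases between their transcripts, 113 bases, lay in the coding sequence of both, at coding bases 371 to 483 in each. It covers the part that encodes the catalytic loop of the kinase. The run is printed in capitals with 12 flanking bases on each side, 5′ to 3′, at chr16:17894711-17894847 (plus strand) for Tssk1 and chr16:17899093-17899229 (plus strand) for Tssk2.

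Tssk1: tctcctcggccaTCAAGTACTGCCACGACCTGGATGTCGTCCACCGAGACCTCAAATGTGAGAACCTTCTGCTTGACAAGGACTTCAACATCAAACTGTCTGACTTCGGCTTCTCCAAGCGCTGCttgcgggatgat
Tssk2: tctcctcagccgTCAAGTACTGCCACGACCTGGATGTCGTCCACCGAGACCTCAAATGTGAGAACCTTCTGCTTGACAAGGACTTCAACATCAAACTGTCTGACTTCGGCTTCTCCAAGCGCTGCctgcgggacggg

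Reads that fall wholly inside this run match both genes. The deposited expected counts of Tssk1 and Tssk2 were nonetheless whole numbers in all 4 libraries (within 0.005), so no fractional split between them is visible. Over the whole coding sequence Tssk1 and Tssk2 were 81.9% identical in a global alignment. The other kinase pairs were 62.2% to 67.0% identical, and no other pair of kinases shared a run of more than 13 bases. A stretch of 42 coding bases around the catalytic loop is printed to show how the kinases differ there, from GENCODE transcripts on GRCm38, with capitals marking bases identical to Tssk1.

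Tssk1 and Tssk2: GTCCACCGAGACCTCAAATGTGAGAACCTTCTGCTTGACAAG
Tssk3: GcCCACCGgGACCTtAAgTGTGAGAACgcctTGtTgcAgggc
Tssk4: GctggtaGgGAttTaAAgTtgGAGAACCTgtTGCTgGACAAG
Tssk6: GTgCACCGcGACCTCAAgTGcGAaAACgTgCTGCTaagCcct

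In this stretch Tssk6 (chr8:69902701-69902742, plus strand) shared 29 of 42 bases with Tssk1, Tssk3 (chr4:129489446-129489487, minus strand) shared 27 and Tssk4 (chr14:55651481-55651522, plus strand) shared 26. Tssk1 and Tssk2 carry it at chr16:17894749-17894790 and chr16:17899131-17899172, both on the plus strand.

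The libraries were deep and alike within genotype. Total expected counts were 17970207 to 19438570 in KK and 18156099 to 19246124 in WT. Log2 CPM correlated across genes (not independent replicates) with Pearson's r of 0.990 within KK and 0.989 within WT. Between the genotypes r was 0.973 to 0.974. TPM is the deposited measure of level, corrected for transcript length so that genes can be compared. Ddx4, the targeted gene, had 54.44 and 52.49 TPM in KK, against 264.96 and 272.92 TPM in WT. In edgeR's fit of counts it was 5.05-fold lower in KK. The inserted sequence is not described, and whether reads from the knock-in allele were counted in full was not tested. Pachytene markers summed to 17470 to 17620 TPM in KK and 18540 to 18690 TPM in WT, with 1 of 20 higher and 13 lower. Spermatid markers summed to 25280 to 25700 TPM in KK and 27300 to 27470 TPM in WT. Of these 40 markers 24 were higher and 12 lower, with a median log2 fold change of 0.43. Leydig markers summed to 2422 to 2504 TPM in KK and 671.3 to 707.0 TPM in WT, with 7 of 8 higher. Sertoli markers summed to 119.0 to 125.0 TPM in KK and 134.0 to 139.4 TPM in WT, with 3 of 8 tested lower. Spermatogonia markers summed to 76.5 to 82.4 TPM in KK and 60.1 to 109.6 TPM in WT, with 6 of 9 tested higher, 1 lower and a median log2 fold change of 1.06. Peritubular, endothelial and macrophage markers summed to 13.7 TPM in both KK libraries and 4.32 to 5.83 TPM in WT, with 4 of 10 tested higher. Beside these counts, 22.0% of all genes tested were called higher in KK and 21.7% lower. No marker of these lists was at 0 in all 4 libraries. In bulk samples, fewer cells of a type and less RNA per cell cannot be told apart. The part of these markers in the results was not tested, nor was which cell type in the fractions held the members' transcripts.

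All 6 transcripts were well detected, and the kinases changed in opposite directions in KK. Tssk6 fell 1.67-fold, Tssk1 and Tssk4 rose 1.57-fold and 1.56-fold, and Tssk2, Tsks and Tssk3 moved by less than 1.2-fold. All 6 passed an adjusted p of 0.05 in edgeR's quasi-likelihood test on genotype, in which 43.7% of the 16571 genes tested passed. Higher in KK were 4 of the 6, beside 22.0% of all genes tested, and lower in KK were 2 of the 6, beside 21.7%. Of all calls 50.4% were higher in KK, and 64.2% when counts were scaled by library size only. The median log2 fold change was 0.15 over the members and 0.00 over all genes tested. All 6 members passed the filter on low counts. In none of the 6 did the TPM of the KK and WT libraries overlap. With 2 libraries per genotype that is a weak sign, also met by genes that did not pass, such as Tsacc and Spag16. Its share over all genes was not counted.

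**Figure D1:**
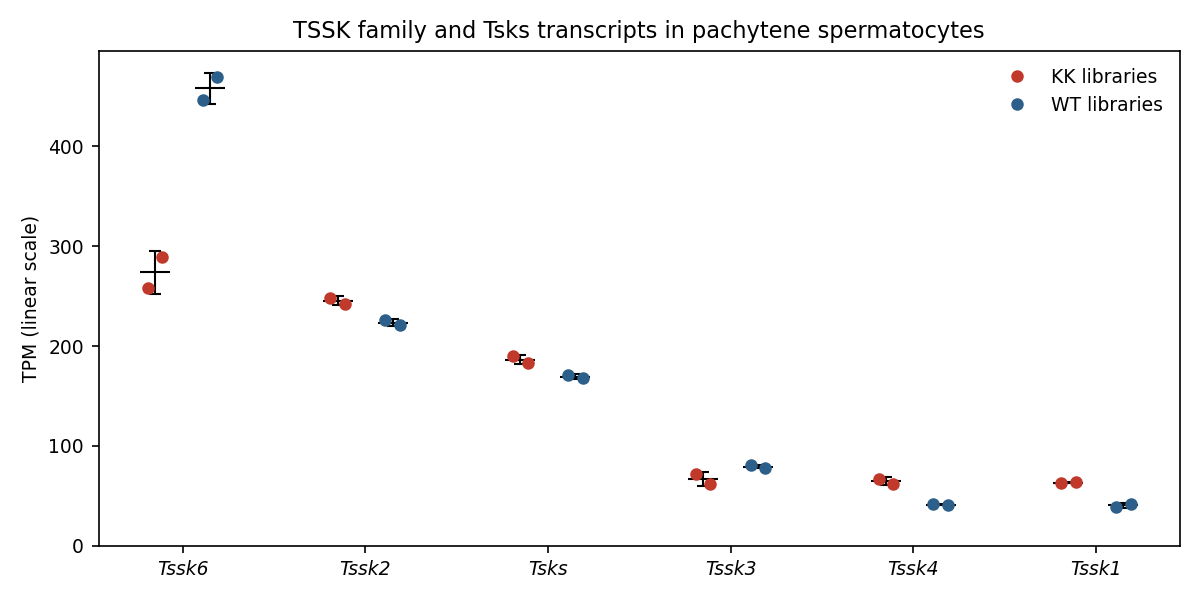
TPM of each member on a linear scale, with the 2 KK libraries (red) left of the 2 WT libraries (blue), points for libraries, horizontal bars for means and error bars for SD. Tssk6 averaged 273.8 TPM in KK and 458.2 TPM in WT, and no member's KK points overlap its WT points.

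Tssk6 (chromosome 8, 69902184 to 69903518, plus strand, 1 exon) was the most abundant member and had the largest log2 fold change in size as tested. That order changed with library size only, where Tssk6 was at -0.66, Tssk1 at 0.73 and Tssk4 at 0.73. Tssk6 had 258.54 and 288.99 TPM in the KK libraries, against 446.95 and 469.45 TPM in the WT libraries. Both KK values lay well below both WT values. The log2 fold change of Tssk6 was -0.74 ± 0.04 (SE, n = 2 libraries per genotype), with an edgeR adjusted p of 5.6e-14. A fall of at least this size was seen in 3.16% of the genes tested.

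Reads at the start of Tssk6 could belong to another gene. The first 375 of its 1335 exon bases (69902184 to 69902558) also lie in exons of Ndufa13, a gene for a subunit of respiratory complex I on the opposite strand, and the library kit does not mark strand. The expected counts of Tssk6 and Ndufa13 were fractional, whereas those of the other 5 members were whole in every library. Ndufa13 went the other way without passing the test, at 46.8 ± 6.84 CPM in KK and 41.2 ± 1.63 CPM in WT (mean ± SD, n = 2 each; adjusted p of 0.091 by edgeR). CPM scales counts to library size with TMM factors and is not corrected for length. The counts of both genes summed came to 5194 and 5006 in KK and to 6973 and 7790 in WT. With the summed counts in place of its own, chosen after the data were seen, the log2 fold change of Tssk6 was -0.61, with an edgeR adjusted p of 2.6e-13. The fall at this locus was thus present in the summed counts too, though there it was smaller in size than the unsummed rises of Tssk1 (0.65) and Tssk4 (0.64). Yjefn3, which shares 15 exon bases with Tssk6, had 10 counts in KK and 15 in WT and was not tested, and Gatad2a, 3557 bases away, rose (log2 fold change 0.30 ± 0.07).

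**Figure D2:**
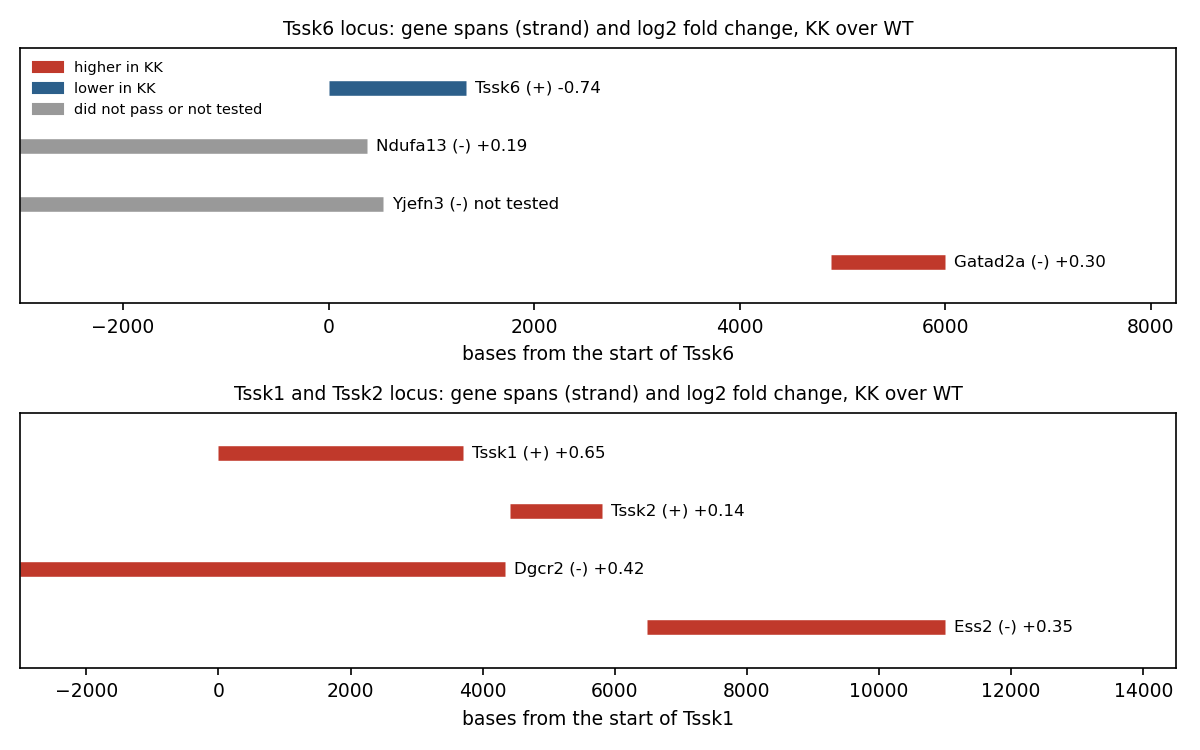
Gene spans around Tssk6 (top) and around Tssk1 and Tssk2 (bottom), in bases from the start of Tssk6 and of Tssk1, with strand and log2 fold change of KK over WT beside each bar; red is higher and blue lower in KK, grey did not pass or was not tested. Bars that reach the edge of the drawn range continue beyond it. Tssk6, at -0.74, is the only bar drawn as lower, and it overlaps Ndufa13 and Yjefn3.

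Tssk1 rose. It had 62.78 and 63.49 TPM in the KK libraries, against 38.56 and 42.01 TPM in the WT libraries. The KK pair agreed within 1 TPM and lay above both WT values. Its log2 fold change was 0.65 ± 0.05 (SE), with an edgeR adjusted p of 2.0e-12. Rises of at least this size were found in 17.9% of the genes tested, so the rise of Tssk1 was less unusual than the fall of Tssk6. Tssk1 lies inside the span of Dgcr2 on the opposite strand and shares 63 of its 3700 exon bases with it. Dgcr2 also rose, at 65.1 CPM in KK and 48.8 CPM in WT. With the counts of Dgcr2 added, also chosen after the data were seen, the log2 fold change of Tssk1 was 0.58.

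Tssk2, its neighbour and closest relative, changed far less. Its levels were 248.56 and 242.58 TPM in KK and 226.02 and 220.75 TPM in WT. Every KK value was above every WT value. The log2 fold change of Tssk2 was 0.14 ± 0.04 (SE), with an edgeR adjusted p of 0.0043. The call was lost without WT replicate 2 (log2 fold change 0.12, adjusted p of 0.093), with effective length offsets (0.068) and in limma on log2(TPM + 1) (0.057). The ratio of Tssk2 to Tssk1, as TPM over TPM, was 3.96 and 3.82 in the KK libraries and 5.86 and 5.26 in the WT libraries. The pair was thus closer in level in KK. Ess2, which encodes a splicing-associated nuclear protein and lies 684 bases beyond Tssk2, rose as well (log2 fold change 0.35 ± 0.10). All 4 neighbouring genes, Dgcr2, Tssk1, Tssk2 and Ess2, were therefore called higher in KK, by unequal amounts, though Ess2 lost its call in 5 of 14 other settings. Gm20518, 2551 bases before Tssk1, was called higher (1.87 ± 0.62) on 57 counts in KK and 14 in WT, a call lost in 6 of 13 other settings. Without KK replicate 1 its log2 fold change was 0.60 and without WT replicate 2 it was 1.06.

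Tsks (chromosome 7, 44943204 to 44958035, plus strand) encodes the substrate of TSSK1 and TSSK2 and moved like Tssk2. Its levels were 189.67 and 183.39 TPM in KK, against 171.02 and 167.78 TPM in WT. The groups did not overlap. The log2 fold change of Tsks was 0.15 ± 0.04 (SE), with an edgeR adjusted p of 0.0024. Like that of Tssk2, the call was lost without WT replicate 2 (0.14, adjusted p of 0.054), with effective length offsets (0.072) and in limma on log2(TPM + 1) (0.066). The TPM of Tssk2 was 1.31 and 1.32 times that of Tsks in the KK libraries and 1.32 times in both WT libraries. The TPM of Tssk1 was 0.331 and 0.3462 times that of Tsks in the KK libraries and 0.2255 and 0.2504 times in the WT libraries. Of these kinases, Tssk2 thus stood in nearly the same proportion to Tsks in all 4 libraries and Tssk1 did not. Cpt1c, 1336 bases away, was called higher (log2 fold change 0.15 ± 0.05), but the call was lost in 7 of 14 other settings, and without KK replicate 2 the value was 0.055.

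Tssk4 (chromosome 14, 55650184 to 55652539, plus strand) rose by nearly the same factor as Tssk1, from which it differs in chromosome and gene structure. It had 67.16 and 61.55 TPM in the KK libraries, against 41.57 and 40.73 TPM in the WT libraries. Both KK values exceeded both WT values. Its log2 fold change was 0.64 ± 0.08 (SE), with an edgeR adjusted p of 2.5e-07. No other annotated gene overlaps Tssk4, and the nearest, Gm49299, lies 2305 bases away and had no counts. Gm49747, 3831 bases away, did not pass (0.02 ± 0.49).

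Tssk3 (chromosome 4, 129489014 to 129491022, minus strand, 2 exons) was the least settled member. Its levels were 72.07 and 62.27 TPM in KK and 80.53 and 78.01 TPM in WT. The KK libraries differed from each other by more than KK replicate 1 differed from either WT library. Tssk3 fell with a log2 fold change of -0.23 ± 0.08 (SE) and an edgeR adjusted p of 0.013. The call was lost in 6 of 14 other settings, and without KK replicate 2 the log2 fold change was -0.14 (adjusted p of 0.19). Fam229a starts 167 bases away on the opposite strand and rose (log2 fold change 0.64 ± 0.06), at 109.9 CPM in KK and 70.2 CPM in WT. Bsdc1, 515 bases beyond the other end of Tssk3, fell (log2 fold change -0.30 ± 0.07), a call lost in 3 of 14 other settings. The genes on either side of Tssk3 thus moved in opposite directions.

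**Figure D3:**
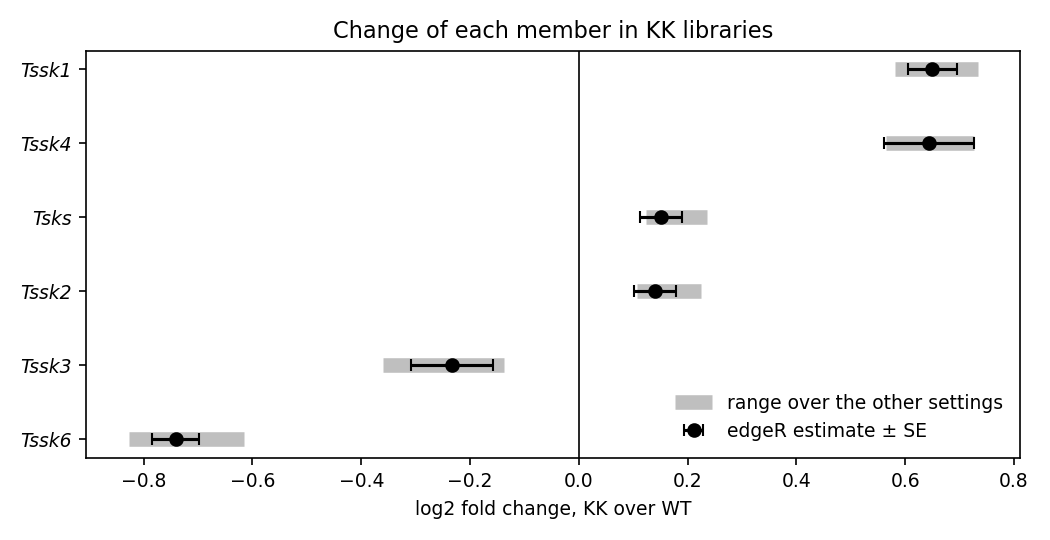
Log2 fold change of KK over WT for each member, with the edgeR estimate as a black point, its SE as a bar and the range over the other settings as a grey band. Tssk1 and Tssk4 lie near 0.65, Tssk6 at -0.74, and no grey band crosses 0.

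The make-up of the kinase transcripts differed between the genotypes more than their total. The 5 kinases summed to 709.1 and 718.9 TPM in KK and to 833.6 and 851.0 TPM in WT. Tssk6 alone took 36.5% and 40.2% of this sum in the KK libraries, against 53.6% and 55.2% in the WT libraries. Tssk6 was 4.12 and 4.55 times as abundant as Tssk1 in KK, against 11.6 and 11.2 times in WT, on the TPM scale. Relative to Tssk2 it was 1.04 and 1.19 times as abundant in KK, against 1.98 and 2.13 times in WT. Tssk6 and Tssk2 were thus close to level in KK, while in WT Tssk6 stood well above Tssk2.

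**Figure D4:**
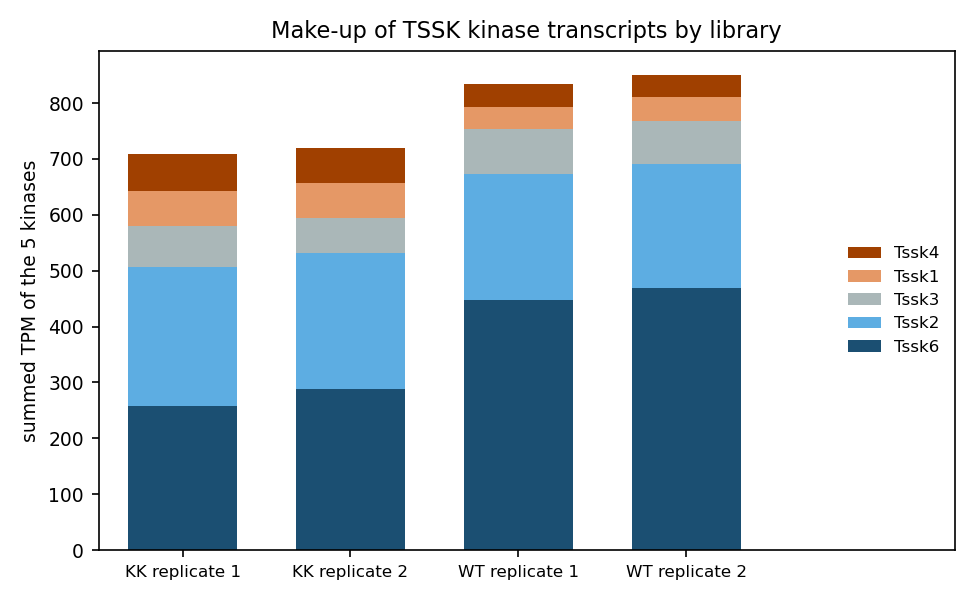
Summed TPM of the 5 kinases in each library, KK libraries left and WT libraries right, with each kinase stacked. The Tssk6 block is 258.54 and 288.99 TPM in KK and 446.95 and 469.45 TPM in WT, while the Tssk1 and Tssk4 blocks are taller in KK.

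By mean TPM, the order was Tssk6, Tssk2, Tsks, Tssk3, Tssk4 and Tssk1 in both genotypes. In KK the values of Tssk3, Tssk4 and Tssk1 overlapped, so their order there was not resolved. In WT the values of Tssk4 and Tssk1 overlapped, while Tssk3 stood above both. Tssk6, Tssk2 and Tsks were separated from each other and from the rest in both genotypes. Among genes with any count, the members lay between the 89.1st percentile (Tssk1) and the 97.4th (Tssk6) in KK and between the 85.0th and the 98.7th in WT.

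Isoforms are described without a test. Tssk1, Tssk2, Tssk3 and Tssk6 have 1 annotated isoform each. Tssk4 has 7, of which Tssk4-207 took 66.0% and 69.9% of the transcripts in KK and 64.0% and 58.5% in WT. Its level was 44.4 and 43.0 TPM in KK, against 26.6 and 23.8 TPM in WT, so the leading isoform followed the gene. Tssk4-201 had 3.74 and 6.77 TPM in KK and 1.77 and 4.24 TPM in WT, so its groups overlapped. Of the 4 isoforms of Tsks, Tsks-201 took 60.3% and 60.6% in KK, against 55.1% and 56.6% in WT. Its level was 114.4 and 111.1 TPM in KK, against 94.2 and 94.9 TPM in WT. Tsks-202 did not share this difference, at 32.1 and 35.9 TPM in KK and 38.5 and 36.4 TPM in WT. Tsks-203 and Tssk4-203 were listed at 0 in all 4 libraries.

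Among the partners, co-chaperones and reported substrates of the kinases, most calls were of small falls, several of them lost in other settings. Of 13 genes in the list, all tested, 2 rose (15.4%), 7 fell (53.85%) and 4 did not pass. Over all genes tested 22.0% rose and 21.7% fell. The median log2 fold change of the list was -0.10. Tssk5, a further family member, stood far below the others at 5.59 and 5.99 TPM in KK and 2.73 and 4.07 TPM in WT. It rose (log2 fold change 0.77 ± 0.21), but its call was lost without WT replicate 1 (0.48, adjusted p of 0.094). Tsacc, the co-chaperone that activates TSSK6, did not pass, at 350.13 and 334.71 TPM in KK and 293.22 and 313.90 TPM in WT (log2 fold change 0.10 ± 0.08, edgeR adjusted p of 0.28). With library size only it passed (0.19, adjusted p of 0.048).

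The listed genes of the HSP90 system, on which many kinases depend for folding, were called lower, while the listed HSP70 gene was called higher. Hsp90aa1 fell (log2 fold change -0.22 ± 0.03), at 1746 and 1799 TPM in KK and 2049 and 2108 TPM in WT, and Hsp90ab1 fell by 0.11 on the log2 scale. Cdc37, the kinase-specific co-chaperone, fell (-0.22 ± 0.05), while Hspa8, the constitutive HSP70, rose (0.23 ± 0.04). Odf2, an outer dense fibre gene whose protein is a reported TSSK4 substrate, fell (-0.13 ± 0.03), at 1701 and 1722 TPM in KK against 1845 and 1901 TPM in WT. H2afx, whose histone product loses its phosphorylated form in spermatids of Tssk6-null mice, fell (-0.25 ± 0.06), and Ppp1cc, the gene of the phosphatase that binds TSKS, fell by 0.10. The calls of Hsp90ab1 and Ppp1cc were each lost in 8 of 14 other settings, those of Cdc37 in 3, H2afx in 2 and Odf2 in 1. Spag16, a reported TSSK2 substrate, and Crem did not pass (adjusted p of 0.14 and 0.064 by edgeR), though Crem was called higher in 3 of 14 other settings. Creb1 fell in counts (-0.36 ± 0.12), a call lost in 4 of 14 other settings and reversed in direction in 3, with 3.50 and 5.44 TPM in KK and 4.48 and 3.38 TPM in WT. Pdpk1, reported to activate TSSK3, did not pass in counts (-0.02 ± 0.05) but was higher with effective length offsets (0.37, adjusted p of 0.003).

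Kinases outside the family also moved in both directions. Of 40 tested kinases of the CAMK group other than the members, 7 rose (17.5%) and 9 fell (22.5%). These shares were near those of all genes tested, 22.0% and 21.7%, and the median log2 fold change was 0.04. Mark2, a microtubule affinity-regulating kinase, fell by about as much as Tssk6 (log2 fold change -0.72 ± 0.04), at 133.9 CPM in KK and 220.7 CPM in WT, and Snrk rose (0.73 ± 0.12). Camkk2 was called lower (-0.76 ± 0.27) and Camk2b higher (0.76 ± 0.30), calls that were lost in 6 and 5 of 14 other settings. Camkk2 lost its call without KK replicate 2 or WT replicate 1, and Camk2b without KK replicate 1 or either WT replicate. The call of Snrk was lost in 2. Of 34 tested kinases of testis or meiosis, 4 rose (11.8%) and 16 fell (47.1%), beside 22.0% and 21.7% of all genes tested. Their median log2 fold change was -0.14. Hipk4, a kinase gene of spermatids, rose (1.19 ± 0.07), at 52.6 TPM in KK and 23.1 TPM in WT, and Tesk2 rose (0.62 ± 0.10). Cdk2, the cell cycle kinase required for meiotic prophase, fell (-0.51 ± 0.04), as did the ciliary kinase gene Ick (-0.66 ± 0.10).

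The split within the family was also seen among spermatid transcripts at large. Of 40 spermatid markers that do not include the members, 24 rose and 12 fell, with a median log2 fold change of 0.43 beside 0.00 over all genes. The markers that fell were the more abundant, with a median of 624.3 TPM in KK and 810.9 TPM in WT, against 126.6 TPM in KK and 82.7 TPM in WT for those that rose. Of the 13 markers with a WT mean of 30 to 100 TPM, where Tssk1 and Tssk4 lie, 11 rose and 1 fell. Tssk3, called lower, lies in the same range. Of the 8 with a WT mean of 100 to 300 TPM, where Tssk2 and Tsks lie, 6 rose and 2 fell. Of the 14 with a WT mean of at least 300 TPM, where Tssk6 lies, 2 rose and 9 fell. Over all genes tested in the same ranges, falls outnumbered rises, with 534 risen and 1086 fallen of 2780, 238 and 558 of 1360, and 112 and 231 of 639. These ranges were set after the values were seen, and the WT level enters both the range and the change, so they are a description.

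**Figure D5:**
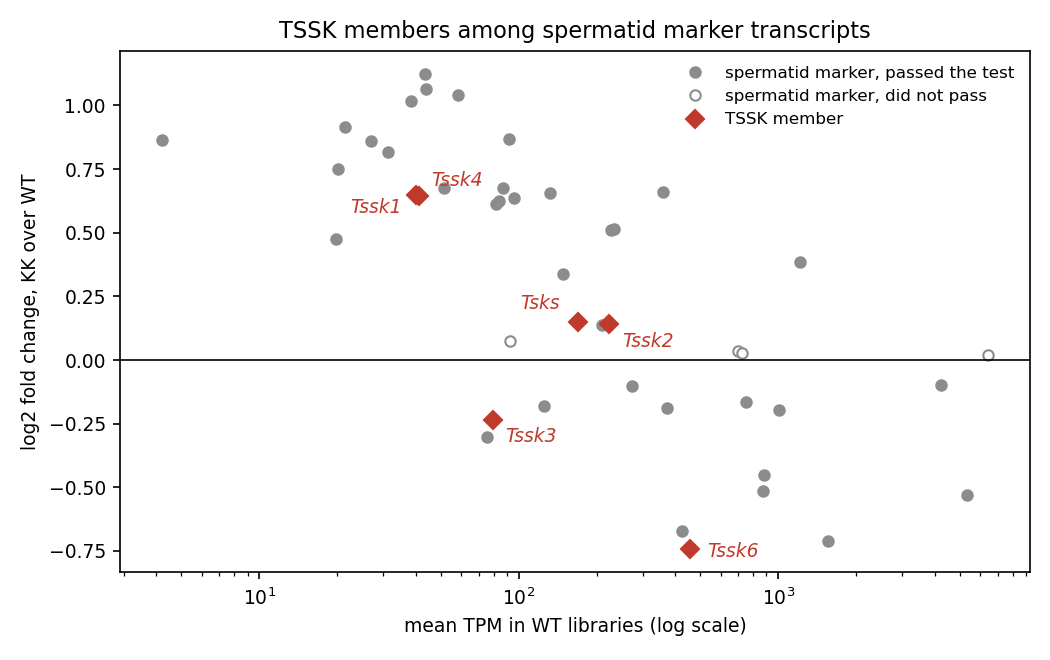
Log2 fold change of KK over WT against the mean TPM in WT on a log axis, for 40 spermatid markers (grey, open where the test was not passed) and the 6 members (red diamonds). Tssk1 and Tssk4 lie among risers near 40 TPM and Tssk6 among fallers above 300 TPM, while Tssk3 lies below 0 at 79.3 TPM.

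Examples on both sides have known roles late in spermatogenesis. Smcp, a mitochondrial capsule protein gene, fell (log2 fold change -0.71 ± 0.04), at 943.5 TPM in KK and 1549 TPM in WT, and Spem1, needed for shedding of spermatid cytoplasm, fell (-0.67 ± 0.04), at 267.5 TPM in KK and 426.9 TPM in WT. Sun5, which links the sperm head to the tail, rose (1.06 ± 0.10), at 90.9 TPM in KK and 43.9 TPM in WT, and Lyzl6, a lysozyme-like sperm protein gene, rose (1.12 ± 0.10). Set against the summed TPM of all 40 markers, Tssk6 came to 1.01% and 1.14% in the KK libraries and 1.63% and 1.72% in the WT libraries. Tssk1 came to 0.244% and 0.251% in KK, against 0.140% and 0.154% in WT.

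The genes nearest to each member in level and pattern were found by Euclidean distance of log2(TPM + 1) over the 4 libraries, a small number that gives a description only. For Tssk6 they included Spem1 (distance 0.21) and Atxn7l3b (0.26). For Tssk1 the third nearest of all genes was Tssk4 (0.16), after H2al1n (0.12) and 4930412M03Rik (0.14), and for Tssk4 the third nearest was Tssk1, after 1700020N15Rik (0.12) and Rnf4 (0.13). Tssk2 had 6430531B16Rik (0.05), H1fnt (0.06) and Psma8 (0.09), and Tssk3 had Phb2 (0.03), Emg1 (0.08) and Zfp207 (0.09). Tsks had Riiad1 (0.06), Spcs2 (0.08) and Sil1 (0.08). Tssk1 and Tssk4 were thus among each other's nearest genes.

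In the 250 bases before the RefSeq start (GRCm38.p6), the letters TGACG, a half-site of the kind bound by CREB-family factors, were searched on both strands. Tssk6 held 1 match, 73 bases before its start, and the windows of the other 5 members held none, beside a share of 17.8% among 32851 such windows. All 250 bases of the Tssk6 window are exon bases of Ndufa13, and all 250 of the Tssk3 window lie in an annotated exon of Tssk3 itself. Exon bases also fill 138 of the Tssk1 window and 110 of the Tssk2 window (both of Dgcr2), and 36 of the Tsks window (of Tsks). AACNG, letters of the kind bound by MYB factors, was found in 4 of the 6 windows, beside 74.2% of all windows. Neither count sets the members apart.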

How the data were processed

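RNA-seq of pachytene spermatocytes was analysed from 2 KK and 2 WT libraries, prepared with a kit that leaves strand unmarked, per the labels' protocols. The submitters' processing notes list Bowtie, mm10 and GRCm38; which program estimated the counts, and on which annotation, is not given in the sources used here. The deposited tables hold, per the file headers, expected counts, TPM, effective lengths in bases and isoform shares in percent. Expected counts are estimates and were rounded to whole numbers here. The deposited TPM and isoform percent values were used as given by the authors. Symbols and positions came from GENCODE M21 (GRCm38), in which 55104 of 55364 identifiers were found. Promoter windows came from RefSeq (GRCm38.p6).

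The test was edgeR 4.0.16 in R 4.3.3: TMM factors, default expression filter, quasi-likelihood fit on genotype, Benjamini-Hochberg adjustment over 16571 genes, threshold 0.05. It was tested on simulated counts with far fewer changed genes than were called here and larger changes than the members showed. That check does not cover changes of the members' size. Standard errors were taken as the absolute log2 fold change over √F. Alternatives were other scaling factors, DESeq2 1.42.0, limma 3.58.1 on log2(TPM + 1) or log2(TPM + 0.1), other filters, effective length offsets, a replicate block and each library left out. The text names the members, genes within 5000 bases of them, all partners, up to 2 risers and 2 fallers of each other list and the 3 nearest genes of each member; lists of other cell types are given by counts and sums, and 1 of the nearest genes is not reported here. The members and lists were chosen with earlier results of these data known.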

Additional observations from a re-analysis of the deposited data

How the results depend on the processing

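The direction of each of the 6 members was kept in all 14 alternatives, with log2 fold changes of -0.83 to -0.61 for Tssk6, 0.58 to 0.73 for Tssk1, 0.57 to 0.73 for Tssk4, 0.11 to 0.22 for Tssk2, 0.12 to 0.24 for Tsks and -0.36 to -0.14 for Tssk3 (for Tssk6 and Tssk1 these ranges include the summed counts). The calls of Tssk6, Tssk1 and Tssk4 held in every one, while 4 of 14 ended the calls of Tssk2 and Tsks and 6 of 14 that of Tssk3. The members called lower numbered 1 with library size only, DESeq2, limma with either pseudocount and effective length offsets, and 1 to 2 with a library left out. The members called higher numbered 2 in limma with either pseudocount and with effective length offsets, and 2 to 4 with a library left out. Over all genes, 7237 passed; limma called 3826 with a pseudocount of 1 and 3758 with 0.1, effective length offsets 4662, DESeq2 4969, and fits without 1 library 5925 to 6552. Calls higher in KK made up 50.4%, and 64.2% with library size only, where Tssk3 had an adjusted p of 0.12; the median of all genes moved by under 0.1. The direction of Creb1 was reversed in limma (0.14 and 0.16) and with effective length offsets (0.16), and so was that of Pdpk1 (0.38, 0.38 and 0.37); the cause was not tested. A replicate block called 7309 genes, among them the same number of members, 4 higher and 2 lower; the shared replicate numbers name no shared animal, and the deviations of same-numbered libraries had r = -0.088 over 14747 genes. Depth did not limit the members, each with at least 558 counts in every library; with 2 libraries per genotype, the spread is poorly known.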
